A study of Mus musculus with 6 samples.

Results

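The Hox genes were read in the transcriptome of mouse fibroblasts on day 3 of reprogramming. A gene was taken as a member when its symbol was Hox, a cluster letter from a to d and a number, and 29 of the 16982 genes in the count table met this. They comprised 7 genes of HoxA, 9 of HoxB, 8 of HoxC and 5 of HoxD. By number, 9 were paralogs 1 to 4, 6 were paralogs 5 to 8 and 14 were paralogs 9 to 13. Of these, 26 had enough counts to be tested, and Hoxb1, Hoxb13 and Hoxd1 did not. Another 10 annotated Hox genes, among them Hoxa5, Hoxd9 and Hoxd11, were not in the count table under their symbols and could not be analysed. HoxD thus had no member between Hoxd3 and Hoxd10.

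The study compared Rnf20 knockout (KO, Rnf20-/-) with wild-type (WT) reprogramming cells, with 3 libraries in each group. RNF20 is the E3 ubiquitin ligase that attaches a single ubiquitin to histone H2B. The cells were mouse embryonic fibroblasts (MEF) of C57BL/6 background, and both groups were infected with retroviruses carrying OCT4, SOX2, KLF4 and C-MYC (OSKM) and were harvested on day 3. In the KO line, LoxP sites flank exons of Rnf20, a ubiquitously expressed Cre is switched on by tamoxifen, and 4-OH tamoxifen was added to the medium to delete the gene. The labels list both groups as untreated, and the sources used here do not say whether the WT cells carried the Cre or received the drug. By the methods, infected MEF are replated on MEF feeders treated with mitomycin C, and the genotype of the feeders and the part of the embryo that gave the MEF were not given in the sources used here. It was not stated whether the 3 libraries of a group came from separate embryos or cultures, so p-values measure only the spread between these libraries, which in WT may be technical.

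Hox genes encode homeodomain transcription factors and lie in 4 clusters, each on its own chromosome. Within a cluster the order of the genes follows the order in which they are used along the body, so that low-numbered paralogs at the 3′ end mark anterior levels and high-numbered paralogs at the 5′ end mark posterior levels and, in HoxA and HoxD, the distal limb. Fibroblasts keep in culture a Hox pattern of the body site they came from, and active and silent stretches of a cluster carry different histone marks. In the files' build, GRCm38, HoxA lies on chromosome 6, HoxB on chromosome 11, HoxC on chromosome 15 and HoxD on chromosome 2.

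The promoters of 3 members are shown because they stand for the ends of the pattern described below: Hoxa13 and Hoxd13, the most 5′ genes of their clusters, and Hoxb4, an anterior gene that rose. Each window is the 250 bases before the RefSeq start in GRCm38.p6, written 5′ to 3′ on the strand of the gene, at chr6:52260881-52261130 (minus strand), chr2:74667975-74668224 (plus strand) and chr11:96318017-96318266 (plus strand). Capitals mark matches on either strand to TATAAA (the TATA box), to the box CCAAT, to the nuclear receptor element AGGTCA or to the CDX-type site TTTATG. In Hoxd13, matches to TATAAA on both strands overlap in a single run of capitals.
Hoxa13: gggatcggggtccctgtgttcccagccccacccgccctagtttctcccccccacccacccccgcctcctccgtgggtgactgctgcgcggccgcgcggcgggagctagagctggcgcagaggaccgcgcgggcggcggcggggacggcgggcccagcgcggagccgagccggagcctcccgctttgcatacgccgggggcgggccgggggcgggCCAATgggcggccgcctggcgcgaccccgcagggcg
Hoxd13: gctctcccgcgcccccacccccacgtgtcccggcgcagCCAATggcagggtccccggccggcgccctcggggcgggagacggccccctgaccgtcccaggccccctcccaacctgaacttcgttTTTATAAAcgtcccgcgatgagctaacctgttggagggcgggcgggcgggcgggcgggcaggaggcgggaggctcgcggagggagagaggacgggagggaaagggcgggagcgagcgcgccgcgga
Hoxb4: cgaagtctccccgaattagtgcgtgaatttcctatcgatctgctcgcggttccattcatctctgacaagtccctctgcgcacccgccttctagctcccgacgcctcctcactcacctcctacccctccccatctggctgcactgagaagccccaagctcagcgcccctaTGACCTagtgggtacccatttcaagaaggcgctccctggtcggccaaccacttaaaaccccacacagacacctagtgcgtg
The windows of Hoxa13 and Hoxd13 hold 35 and 31 CG dinucleotides, a number that 2.97% and 5.19% of all 32851 windows of this length reach, and that of Hoxb4 holds 14, which 29.4% reach. The RefSeq table held 15 windows for 14 of the 29 members, with a median of 12 CG dinucleotides against 6 over all windows. CCAAT stood in 9 of the 15 (33.8% of all windows), AGGTCA in 4 (14.0%), TATAAA in 3 (12.4%) and TTTATG in 3 (10.8%). A match describes these letters only and is no measure of binding.

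Libraries held between 20545442 and 21746898 counts, and 13386 genes passed a filter on low counts. Levels are given as CPM, the counts of a gene divided by the TMM-normalized total of the library and scaled to a common size, on which 3 counts in a library equal 0.142 to 0.143 CPM, and counts of different genes are not compared with each other because genes differ in length. Rnf20 fell from 107, 107 and 106 CPM in WT to 18.7, 18.5 and 16.4 CPM in KO (log2 fold change -2.57, SE 0.0812, adjusted p = 0.000163). Here and below, p comes from the quasi-likelihood test of edgeR and is adjusted by Benjamini-Hochberg over all genes tested. KO replicate 3 stood apart from the other KO libraries: per gene, the chi-square of its counts was 92.4 and 101 against KO replicates 1 and 2, which differed from each other by 8.57. Among WT pairs this ranged from 6.04 to 8.92. The Y-linked gene Ddx3y had between 94.4 and 128 CPM in the WT libraries and KO replicate 2, and no counts in KO replicates 1 and 3. The KO libraries thus did not all come from the same cells, and their spread is not technical alone. KO replicates 1 and 3 also differed in this gene from every WT library. Differences in the embryos or body sites that gave the MEF therefore cannot be told apart from the knockout in any Hox difference below, and this was not tested. For Hox genes, their medians and the counts of calls, values without KO replicate 3, chosen after the values were seen, are given where the call changes or the value moves by over 1.5 times. Fibroblast markers were abundant in every library: the 8 on the list summed to between 17862 and 33161 CPM in each, with KO replicate 3 the lowest.

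At the looser threshold used here, an adjusted p under 0.05 with no limit on size, 4 Hox genes fell in the knockout (Hoxa9, Hoxa10, Hoxd3 and Hoxd10) and 8 rose, among them Hoxa4, Hoxa7, Hoxb4, Hoxb5, Hoxb7, Hoxc5 and Hoxc8. The 4 that fell are 15.4% of the 26 tested, against 16.6% of all genes tested, and the 8 that rose are 30.8%, against 16.4%. The WT and KO libraries did not overlap for 20 of the 26, which is 76.9%, against 54.8% of all genes (9 members lower in KO, against 28.2% of all genes, and 11 higher, against 26.6%). Without KO replicate 3 these 3 counts could only stay or rise, so that they stayed the same is no check on them. The median absolute log2 fold change was 0.83 over the 26 members and 0.32 over all genes tested. At the stricter threshold, taken from the methods of the study (adjusted p under 0.01, over 2-fold, and a mean level over 1 in WT or KO in FPKM, the fragments per kilobase of gene scaled by sequencing depth), no member was called in either direction, against 2.08% of all genes lower and 1.5% higher. At an unadjusted p under 0.05 the numbers were 6 lower (against 23.0% of all genes) and 10 higher (against 22.5%), and DESeq2 called 2 lower (Hoxa10 and Hoxd10, against 4.22% of all genes) and 4 higher (among them Hoxb4, Hoxb5 and Hoxb7, against 3.12%) at the stricter threshold.

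**Figure D1:**
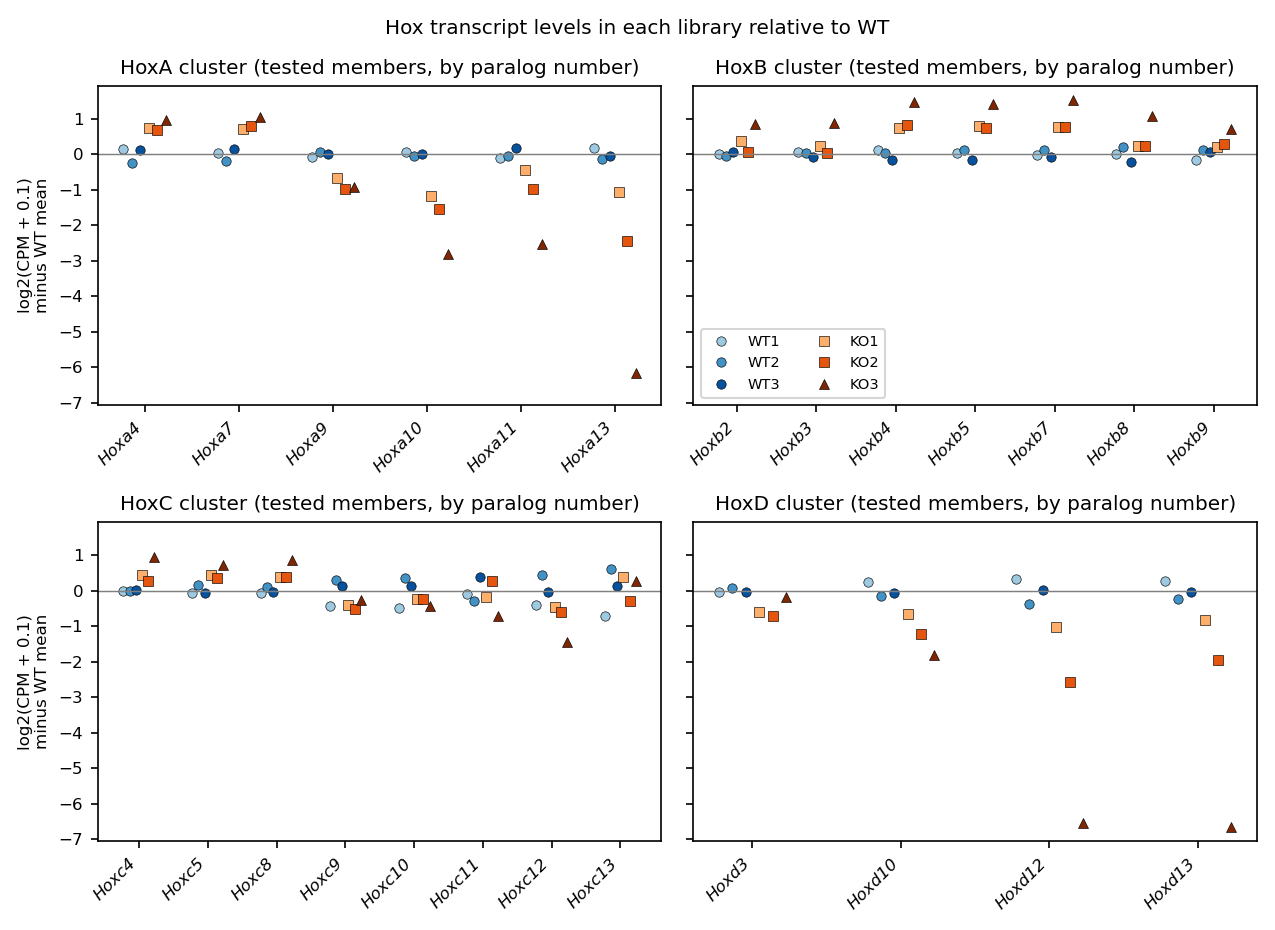
Level of tested Hox genes in each library as log2(CPM + 0.1) minus the WT mean, in 1 panel per cluster, with WT libraries in blue circles and KO libraries in orange and brown symbols. KO replicate 3, the triangle, is the highest library for every HoxB gene drawn and the lowest for Hoxa13 and Hoxd13, and the largest drops are at the right of the HoxA and HoxD panels.

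The sign of the change went with the paralog number in HoxA, while all tested HoxB genes had a positive and all tested HoxD genes a negative fold change. In groups formed after the values were seen, all 12 tested paralogs 1 to 8 of HoxA, HoxB and HoxC had a positive fold change. Of these 8 were called, against 16.4% of all genes called higher. All 6 tested paralogs 10 to 13 of HoxA and HoxD had a negative fold change. With all 6 libraries 2 of them were called, against 16.6% of all genes called lower. Without KO replicate 3 the signs were the same, with 9 of the 12 and all 6 called (against 23.9% of all genes higher and 24.2% lower). Because the groups were formed by these signs, the counts are a description and no test. The tested HoxD gene outside these groups, Hoxd3, fell. The median log2 fold change was 0.58 over the 7 tested paralogs 1 to 4, 0.71 over the 6 paralogs 5 to 8 and -0.87 over the 13 tested paralogs 9 to 13, beside -0.00032 over all genes. By cluster it was -0.86 in HoxA, 0.56 in HoxB, -0.077 in HoxC and -1.52 in HoxD. Without KO replicate 3 the medians were 0.36, 0.57 and -0.70 for the 3 paralog classes, and -0.70, 0.24, 0.013 and -1.11 for HoxA to HoxD. Across the 26 genes, the Spearman correlation of paralog number with log2 fold change was -0.74, and -0.70 without KO replicate 3. Within clusters it was -0.93 in HoxA (n = 7), -0.64 in HoxC (n = 8) and -0.80 in HoxD (n = 4), and -0.036 in HoxB (n = 7), where it was 0.29 without KO replicate 3. These correlations are descriptions over genes that share libraries and neighbouring chromatin, and genes are not replicates.

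**Figure D2:**
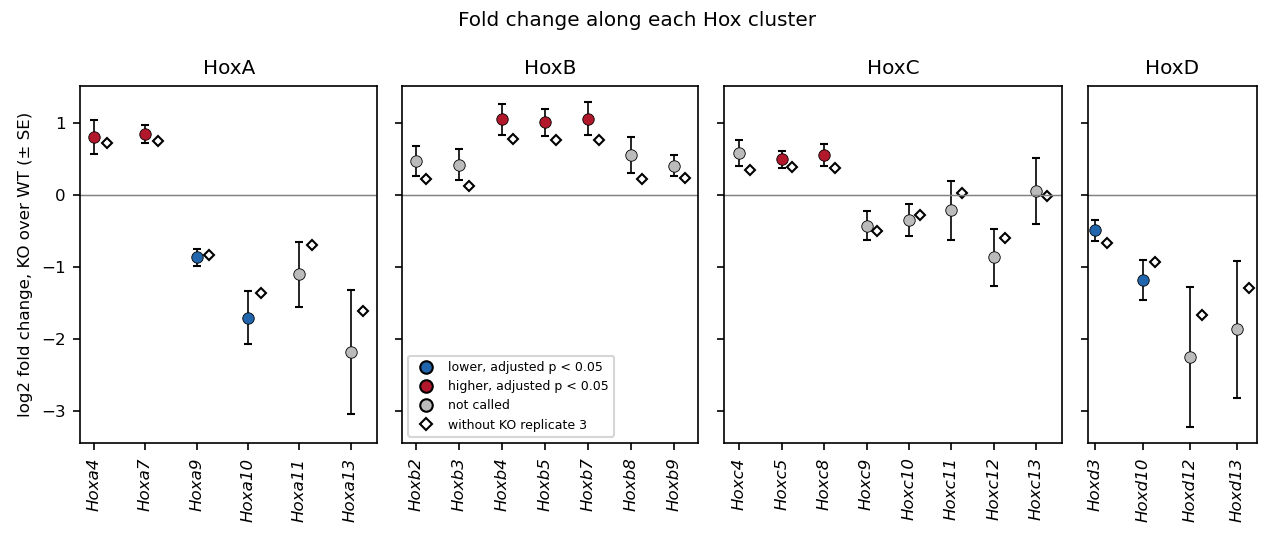
Log2 fold change of KO over WT (± SE) along each cluster, ordered by paralog number, with filled circles for all 6 libraries (blue lower, red higher, grey not called) and open diamonds for the value without KO replicate 3. HoxA goes from 0.81 at Hoxa4 to -2.18 at Hoxa13, all 7 HoxB genes lie above 0 and all 4 HoxD genes lie below 0.

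In HoxA the change of sign lay between Hoxa7 and Hoxa9, which are neighbours in these data. Hoxa4 (chromosome 6, 52189671 to 52191753) measured 1.90, 1.42 and 1.90 CPM in WT and 2.96, 2.80 and 3.43 CPM in KO, without overlap at this low level (log2 fold change 0.81, SE 0.236, adjusted p = 0.0391). Hoxa7, a trunk-level gene (52214491 to 52221854), measured 23.7, 20.46 and 25.8 CPM in WT and 37.9, 40.5 and 47.8 CPM in KO. All KO libraries were higher and close together, and Hoxa7 had the lowest adjusted p of the members that rose (log2 fold change 0.85, SE 0.128, adjusted p = 0.0064).

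Hoxa9, the next gene in the table and a factor of posterior trunk and blood progenitors (52223100 to 52231089), went the other way. It measured 18.9, 20.8 and 19.8 CPM in WT and 12.4, 9.92 and 10.3 CPM in KO, so that the KO mean was 54.9% of the WT mean. The groups stood well apart and KO replicate 3 lay between the other KO libraries (log2 fold change -0.86, SE 0.118, adjusted p = 0.0051). Hoxa10, which patterns the lumbar spine, the upper limb skeleton and the uterus (52231197 to 52240854), measured 41.5, 38.1 and 39.8 CPM in WT and 17.6, 13.5 and 5.62 CPM in KO. The WT libraries were nearly level while the KO libraries were all below them and spread widely, with replicate 3 the lowest (log2 fold change -1.70, SE 0.363, adjusted p = 0.0160). Without KO replicate 3 the log2 fold change was -1.35 and the adjusted p 9.2e-06.

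Hoxa11 and Hoxa13, described after their values were seen, are needed for the forearm and for the hand and foot. Hoxa11 measured 19.5, 20.1 and 23.8 CPM in WT and 15.4, 10.6 and 3.57 CPM in KO (log2 fold change -1.10, SE 0.451, adjusted p = 0.104). Hoxa13 (52257694 to 52260880), whose promoter is printed above, had 409, 330 and 348 counts in WT, or 19.4, 15.7 and 16.5 CPM, and 171, 65 and 3 counts in KO, or 8.16, 3.09 and 0.143 CPM. KO replicate 3 was thus at 0.83% of the WT mean and KO replicate 1 at the top of a wide range, which still lay below WT. With all 6 libraries neither gene passed (Hoxa13: log2 fold change -2.18, SE 0.860, adjusted p = 0.0933). Without KO replicate 3 both did, with log2 fold changes of -0.70 for Hoxa11 (adjusted p = 0.00412) and -1.61 for Hoxa13 (adjusted p = 0.00122).

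HoxD had 4 tested members and all 4 had a negative fold change without overlap between the groups. Over all genes tested, 28.2% were lower in KO without overlap. Hoxd10, a limb and lumbar motor neuron gene (chromosome 2, 74691924 to 74695105), measured 62.5, 47.2 and 50.0 CPM in WT and 33.3, 22.4 and 15.1 CPM in KO. Its KO libraries were all below WT and again KO replicate 1 was the highest of them and replicate 3 the lowest (log2 fold change -1.17, SE 0.278, adjusted p = 0.0216). Hoxd12 (74675013 to 74677705) and Hoxd13 (74668310 to 74671599), which act together in the digits, held 247, 151 and 199 and then 1108, 781 and 880 counts in WT. In KO, Hoxd12 held 94, 31 and 0 counts (4.49, 1.47 and 0 CPM, beside 11.7, 7.17 and 9.44 CPM in WT), and a count of 0 allows up to 0.143 CPM. Hoxd13 held 515, 235 and 7 counts in KO (24.6, 11.2 and 0.333 CPM, beside 52.7, 37.1 and 41.8 CPM in WT). In KO replicate 3 both 5′ genes were thus close to absent, while KO replicate 1 kept part of the WT level.

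Neither gene passed with all 6 libraries, and both passed without KO replicate 3. With all 6 libraries, Hoxd12 had a log2 fold change of -2.25 (SE 0.968, adjusted p = 0.117) and Hoxd13 one of -1.87 (SE 0.945, adjusted p = 0.169). Without KO replicate 3 these were -1.66 (adjusted p = 0.00403) and -1.29 (adjusted p = 0.0024), and Hoxd10 was at -0.93 (adjusted p = 0.000982). Across all members, leaving out KO replicate 3 raised the calls at the looser threshold to 8 lower (against 24.2% of all genes) and 10 higher (against 23.9%), and at the stricter threshold to 4 lower, namely Hoxa10, Hoxa13, Hoxd12 and Hoxd13 (against 3.63%), and 0 higher (against 2.22%). The remaining HoxD member at the 3′ side, Hoxd3, a gene of the neck vertebrae (74711927 to 74748442), measured 21.0, 22.4 and 21.0 CPM in WT and 14.0, 13.1 and 18.7 CPM in KO (log2 fold change -0.49, SE 0.148, adjusted p = 0.0443). It differed from the 5′ HoxD genes in that KO replicate 3 was the highest KO library, and 62.3% of its exonic bases are shared with Hoxd4 and another gene on the same strand, so its counts may not be its own.

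**Figure D3:**
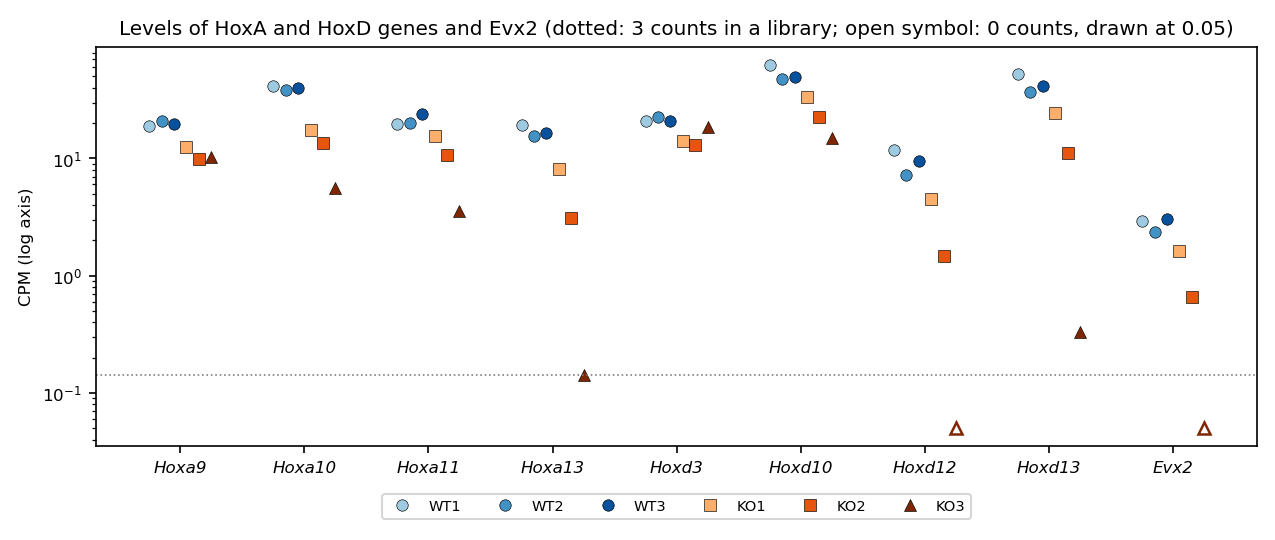
Level in CPM, on a log axis, of the HoxA genes from Hoxa9 on, the tested HoxD genes and the neighbouring Evx2 in each of the 6 libraries. Open symbols mark a library with 0 counts and the dotted line marks 3 counts. KO replicate 3 lies at 0.143 CPM for Hoxa13 and 0.333 CPM for Hoxd13 and at 0 for Hoxd12 and Evx2.

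The order among the KO libraries recurred. For 7 members (Hoxa10, Hoxa11, Hoxa13, Hoxc12, Hoxd10, Hoxd12 and Hoxd13) every KO library was below every WT library with KO replicate 1 the highest and KO replicate 3 the lowest of the KO group, an order found in 11.4% of all genes tested. KO replicate 3 was the highest of all 6 libraries for 13 of the 26 members (33.1% of all genes) and the lowest for 8 (34.0% of all genes). The latter share is no larger than over all genes, and KO replicate 3 was the lowest or the highest library for 67.1% of all genes. Evx2, a homeobox gene just beyond Hoxd13 that shares its limb control region, is no Hox gene and was looked at after its values were seen. It measured 2.95, 2.37 and 3.04 CPM in WT and 1.62, 0.665 and 0 CPM in KO, with the same order (log2 fold change -1.86, adjusted p = 0.148, and -1.28, adjusted p = 0.0178, without KO replicate 3).

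HoxB was the cluster in which every tested member had a higher mean in the knockout, with 3 of 7 called (against 16.4% of all genes). Hoxb4, known for supporting blood stem cells (chromosome 11, 96318267 to 96321638, promoter printed above), measured 10.6, 9.92 and 8.64 CPM in WT and 16.2, 17.0 and 27.1 CPM in KO (log2 fold change 1.05, SE 0.219, adjusted p = 0.0149). Hoxb5, a gene of the shoulder level and the gut nerves (96303336 to 96306121), measured 27.5, 28.9 and 24.0 CPM in WT and 46.7, 44.3 and 70.7 CPM in KO (log2 fold change 1.01, SE 0.192, adjusted p = 0.0113). Hoxb7 (96286623 to 96290162) measured 7.65, 8.45 and 7.45 CPM in WT and 13.4, 13.3 and 22.5 CPM in KO (log2 fold change 1.06, SE 0.228, adjusted p = 0.0162). In all 3 genes KO replicates 1 and 2 were close together and above WT, and KO replicate 3 was higher again. Without it the log2 fold changes were 0.78, 0.77 and 0.76, each still called (adjusted p = 0.00042, 7.4e-05 and 0.000575).

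Hoxb9, the HoxB member with the highest FPKM in WT and the most 5′ HoxB gene that was tested, measured 52.3, 62.8 and 60.4 CPM in WT and 67.0, 70.6 and 95.8 CPM in KO. The groups did not overlap but the difference did not pass with all 6 libraries (log2 fold change 0.41, SE 0.152, adjusted p = 0.0791), and it passed without KO replicate 3 at a smaller size (0.24, adjusted p = 0.0349). Its sign was opposite to that of Hoxa9, its paralog. Hoxb2, Hoxb3 and Hoxb8 had log2 fold changes of 0.47, 0.42 and 0.56 (adjusted p = 0.131, 0.174 and 0.130), and of 0.23, 0.13 and 0.23 without KO replicate 3 (adjusted p = 0.227, 0.288 and 0.158). The libraries overlapped for Hoxb2 and Hoxb3. The ends of the cluster were nearly silent: Hoxb1 had 1 count in KO replicate 3 and none elsewhere, and Hoxb13 had 0, 4 and 3 counts in WT and none in KO. Hoxd1, the remaining member under the filter, had 5, 8 and 4 counts in WT and 0, 7 and 2 in KO.

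HoxC was split. Hoxc5 (chromosome 15, 102967443 to 103017429) measured 53.3, 62.5 and 53.0 CPM in WT and 75.5, 71.3 and 91.5 CPM in KO (log2 fold change 0.50, SE 0.121, adjusted p = 0.0231). Hoxc8, a thoracic-level gene (102990607 to 102994111), measured 28.4, 32.5 and 29.4 CPM in WT and 38.8, 38.9 and 54.8 CPM in KO (log2 fold change 0.55, SE 0.152, adjusted p = 0.0336). For both genes all KO libraries were above all WT libraries, and Hoxc4, at a log2 fold change of 0.58, did not pass with all 6 libraries (adjusted p = 0.0508). It passed at a smaller size, 0.36, without KO replicate 3 (adjusted p = 0.0200). None of the 5 HoxC paralogs 9 to 13 was called, with log2 fold changes of -0.43 for Hoxc9, -0.34 for Hoxc10, -0.21 for Hoxc11, -0.87 for Hoxc12 and 0.058 for Hoxc13 (adjusted p from 0.131 to 0.930). Of these only Hoxc12 had no overlap, at 1.47, 2.75 and 1.95 CPM in WT and 1.43, 1.28 and 0.667 CPM in KO, and the signs of Hoxc11 and Hoxc13, both near 1 CPM, turned when single libraries were left out.

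The balance within each cluster was read as the share of its counts that lay on paralogs 9 to 13. In HoxA this share was 78.1%, 80.2% and 77.6% in WT and 54.5%, 44.4% and 25.6% in KO. In HoxD it was 85.7%, 80.1% and 82.7% in WT and 81.7%, 72.3% and 44.99% in KO, where KO replicate 1 lay within the WT range. In HoxC it was 17.5%, 24.2% and 24.0% in WT and 14.4%, 14.5% and 10.9% in KO. In HoxB it was 36.9%, 40.6% and 43.0% in WT and 34.4%, 36.9% and 32.1% in KO, where KO replicate 2 and WT replicate 1 were level. In HoxA counting error was small beside the differences. The 95% Wilson intervals there were 23.6% to 27.8% in KO replicate 3 and 52.3% to 56.6% in KO replicate 1. In HoxB the intervals of WT replicate 1 (35.2% to 38.6%) and KO replicate 1 (32.9% to 35.9%) overlapped. These intervals cover counting error only. The shares were not tested, and they depend on gene length and on which genes of a cluster are in the table.

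**Figure D4:**
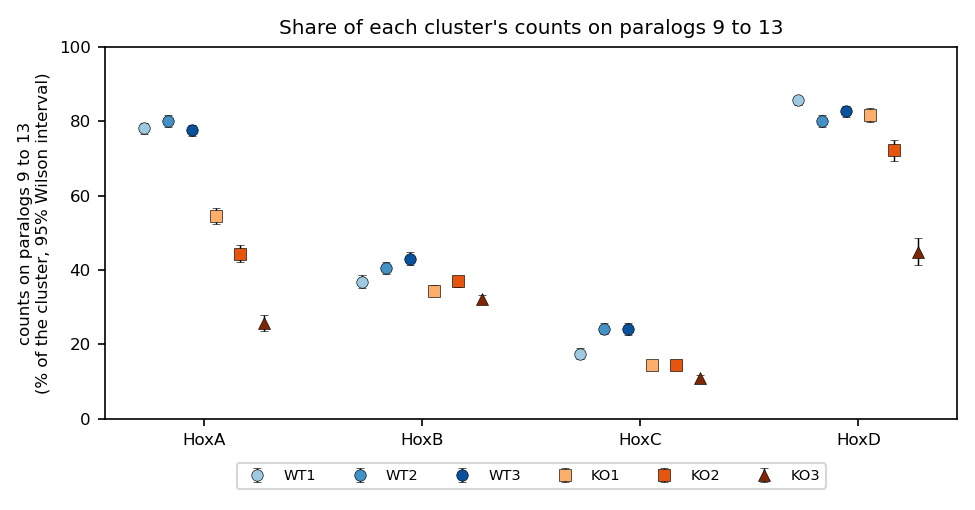
Share of the counts of each cluster that lay on paralogs 9 to 13, in percent, for each library, with 95% Wilson intervals that cover counting error only. WT libraries of HoxA lie between 77.6% and 80.2% and KO libraries between 25.6% and 54.5%, and in HoxD KO replicate 3 is at 44.99%.

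Summed over all 29 members, the level was 530, 528 and 515 CPM in WT and 521, 468 and 598 CPM in KO, so the groups overlapped. The sums of the clusters differed in sign. HoxA went from 125 ± 5.78 CPM in WT to 86.3 ± 11.01 CPM in KO, and HoxD from 128 ± 17.7 to 53.0 ± 21.4 CPM (SD, n = 3 libraries each). HoxB went from 146 ± 8.09 to 228 ± 60.9 CPM and HoxC from 125 ± 13.9 to 162 ± 23.7 CPM. Both differences rested in part on KO replicate 3, since the KO sums were 195, 191 and 298 CPM for HoxB and 151, 145 and 189 CPM for HoxC. The falls of HoxA and HoxD also rested in part on KO replicate 3, the lowest library in both. Their KO sums were 98.3, 83.8 and 76.7 CPM for HoxA and 76.4, 48.5 and 34.2 CPM for HoxD. In bulk RNA, fewer cells that use a gene and less RNA per cell cannot be told apart.

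Compared per length, the deposited FPKM values gave another order of members in KO. Among the 24 members with an FPKM value, Hoxa10 (26.1 ± 2.15) and Hoxd13 (24.1 ± 4.33) were the highest in WT (SD, n = 3 libraries), and their values lay within the spread of each other. In KO the FPKM of Hoxa10 was 8.21 ± 3.91, rank 11, and that of Hoxd13 was 6.64 ± 6.68, rank 14. Hoxc5, at an FPKM of 15.4 ± 0.475 in WT and close to Hoxd10 (15.9 ± 0.592) and Hoxb9 (15.8 ± 1.06) there, was the highest member in KO at 30.9 ± 9.70, followed by Hoxb9 at 22.6 ± 4.58 and Hoxa7 at 21.4 ± 2.65, which do not differ beyond their spread. The CPM of Hoxc5 in KO was 141% of that in WT, a smaller change than that of its FPKM. CPM was not used to rank members, because it leaves out gene length. For some members the deposited gene length is far longer than the exons annotated in GENCODE M21: 17347 against 3089 bases for Hoxc5, 15924 against 1816 for Hoxd10, 10041 against 2786 for Hoxb5, 8679 against 2574 for Hoxb9 and 4717 against 2472 for Hoxa13. The counts of these features need not come from the named gene alone, and the FPKM of Hoxd10 in KO, at 10.1, 8.65 and 8.46, was more even than its CPM.

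The genes around and beside the Hox genes were read from lists. At the looser threshold 16.6% of all genes tested fell and 16.4% rose. Without KO replicate 3 these shares were 24.2% and 23.9%. Of 8 TALE-class cofactors, which bind DNA together with Hox proteins, 2 fell and none rose: Meis1 (log2 fold change -0.29, adjusted p = 0.0314) and Pknox1 (-0.36, adjusted p = 0.0349). Pbx4 (0.77, adjusted p = 0.0987) and Meis2 (-0.16, adjusted p = 0.119) did not pass. The summed level of the cofactors was 360 to 385 CPM in WT and 355 to 390 CPM in KO. None of 16 listed non-coding RNAs of the clusters, such as Hottip or Hotair, was in the table under its symbol. Of 21 tested genes that flank the clusters, 6 fell and 3 rose (9 and 4 without KO replicate 3), among them Hnrnpa1 beside HoxC (an RNA-binding protein, -0.94, adjusted p = 0.0119), Atp5g2 beside HoxC (a subunit of the ATP synthase, -0.50, adjusted p = 0.00491), Cbx3 beside HoxA (a heterochromatin protein, -0.48, adjusted p = 0.0106) and Snx11 beside HoxB (a sorting nexin, 0.64, adjusted p = 0.0117). The median log2 fold change of the flanking genes was -0.031.

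Retinoic acid and CDX factors are the classical activators of Hox genes in the embryo. Of 16 tested genes of this list 4 fell and 2 rose (against 16.6% and 16.4% of all genes). Without KO replicate 3 the numbers were 8 and 4 (against 24.2% and 23.9%). Rdh10, which makes the precursor of retinoic acid, rose from 40.8, 34.8 and 31.9 CPM in WT to 65.5, 68.2 and 103 CPM in KO and passed the stricter threshold too (log2 fold change 1.14, adjusted p = 0.00862). The retinoid receptor genes Rxra (-0.33, adjusted p = 0.0110), Rara (-0.39, adjusted p = 0.0180) and Rarg (-0.38, adjusted p = 0.0250) fell by small amounts. Crabp1, a retinoic acid-binding protein singled out after its values were seen, fell from 337, 368 and 360 CPM in WT to 106, 123 and 20.1 CPM in KO (log2 fold change -2.10, adjusted p = 0.0349). Its KO libraries were all far below WT, with replicate 3 lowest. The remaining gene that rose was Gdf11, a TGF-beta ligand of posterior patterning (0.30, adjusted p = 0.0467).

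Of 17 tested genes of limb and body position 8 fell and 2 rose (against 16.6% and 16.4% of all genes). Without KO replicate 3 the numbers were 9 and 2 (against 24.2% and 23.9%). With all libraries the median log2 fold change of the list was -0.71. The genes of this list with the lowest p included Alx4 (-0.74, adjusted p = 0.00752), Tbx15 (-0.95, adjusted p = 0.0079) and Emx2 (-0.76, adjusted p = 0.0122). They are homeobox and T-box factors of the limb bud and the shoulder girdle. The other genes named here were chosen after their values were seen. Tbx5, the T-box factor of the forelimb, fell from 15.8, 10.02 and 12.4 CPM in WT to 5.68, 4.42 and 2.14 CPM in KO (log2 fold change -1.64, adjusted p = 0.0164). Tbx4, its counterpart in the hindlimb, fell from 24.6, 21.5 and 24.8 CPM in WT to 11.5, 7.79 and 3.10 CPM in KO (log2 fold change -1.66, adjusted p = 0.0236). RNA of both genes was thus present in WT, and every KO library was below every WT library. Lmx1b, the dorsal limb factor (-1.52, adjusted p = 0.0384), and Shox2, a factor of the upper limb bones (-0.72, adjusted p = 0.0162), fell too, while Alx1, a craniofacial factor (1.23, adjusted p = 0.0237), and Tbx3, a factor of the limb margins (0.43, adjusted p = 0.0399), rose.

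**Figure D5:**
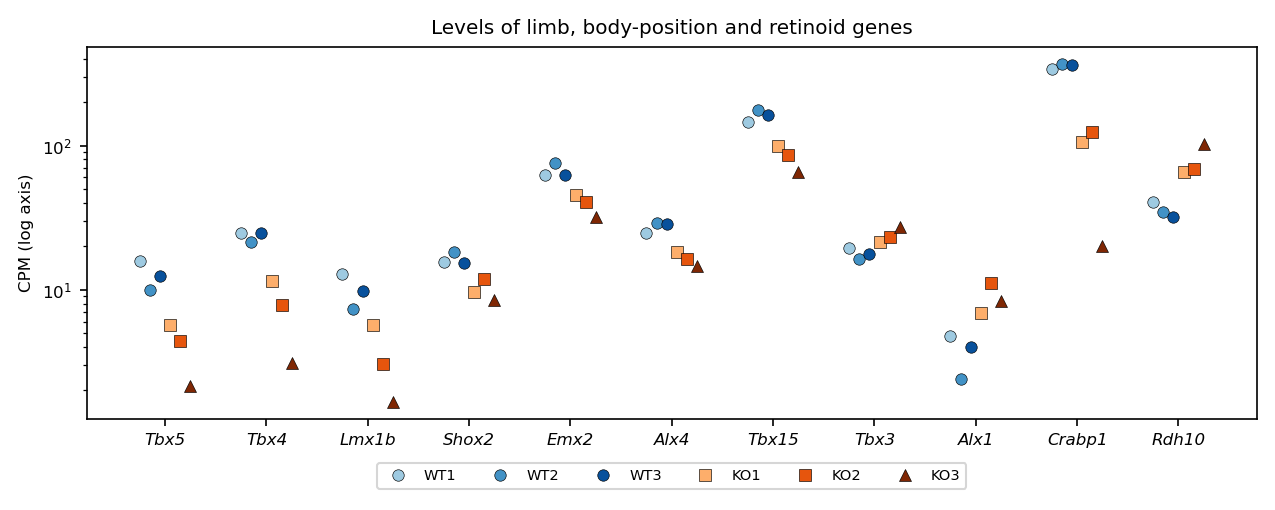
Level in CPM, on a log axis, of genes of limb and body position and of the retinoid genes Crabp1 and Rdh10 in each of the 6 libraries. Tbx5, Tbx4, Lmx1b and Crabp1 are lowest in KO replicate 3, while Rdh10 is highest there.

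Markers of other cells also differed between the libraries, but not all in the same order. The 6 epithelial markers summed to 46.8 to 51.2 CPM in WT and to 41.9, 29.4 and 5.33 CPM in KO replicates 1, 2 and 3, the order also seen in the 5′ HoxA and HoxD genes, and none of the 6 was called with all libraries. Krt8, the largest part of the WT sums, and Krt18 had this order with every KO library below WT. Both were called lower without KO replicate 3. The rest of the list differed. Cdh1 was at 13.4 CPM in KO replicate 1, above every WT library, and Krt14 at 7.73 CPM there, within the WT range. Epcam was below WT in every KO library, with KO replicate 2 the highest of them. Krt5 had a positive log2 fold change, 0.91, and was also highest in KO replicate 2. The 5 macrophage markers summed to 40.6 to 83.7 CPM in WT and to 69.0, 42.1 and 216 CPM in KO, with Adgre1 at 31.9 CPM in KO replicate 3, where no other library exceeded 4.27 CPM. Of the 8 fibroblast markers 2 fell, Thy1 (-1.11, adjusted p = 0.00251) and Pdgfra (-1.22, adjusted p = 0.0185), and none rose. Over all genes 16.6% fell and 16.4% rose. Vim was called higher without KO replicate 3, where 23.9% of all genes were. The 4 endothelial markers summed to 48.3 to 59.0 CPM in WT and 32.3 to 66.9 CPM in KO, the 3 muscle markers to 7.08 to 8.87 and 4.29 to 12.5 CPM, and the 3 neural and glial markers in the table to 5.74 to 7.74 and 9.05 to 14.7 CPM. The defining endothelial gene Cdh5, the muscle regulators Myod1 and Myog and the neuronal gene Elavl3 were at or near 0 in all libraries. Pecam1, also a defining endothelial gene, had 2, 1 and 0 counts in WT and 11, 10 and 11 in KO, and was not tested. The part of these differences in the Hox values was not tested.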

How the data were processed

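RNA-seq of 3 WT and 3 Rnf20 KO samples at day 3 was analysed. Per the labels and the study's methods, the authors prepared stranded mRNA libraries and aligned paired reads to GRCm38/mm10 with HISAT2 2.1.0. The authors deposited raw counts per gene, with gene lengths. The counting program and its use of strand were not given in the sources used here, so antisense partners such as Hoxa11os (Hoxa11), Hoxb3os (Hoxb2 and Hoxb3) and Hoxb5os (Hoxb5) may share reads with members. The deposited FPKM values (Cufflinks 2.1.1, per the submitters' processing notes) cover 12633 genes and were used as levels and for a threshold. The deposited log2 fold changes, p-values (FDR) and repeated counts were not used.

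Counts were tested with edgeR 4.0.16 in R 4.3.3: TMM, filterByExpr at its defaults, the quasi-likelihood test without covariates and Benjamini-Hochberg adjustment over 13386 genes. SE was derived from the fold change and its F statistic, as their ratio with the square root of F. Alternatives were RLE factors, library size alone, no filter, DESeq2 1.42.0, a replicate block, no FPKM threshold, and leaving out each library. The code was tested on simulated data. Gene positions came from GENCODE M21 and promoters from RefSeq.

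Full values are given for members called, the highest FPKM in WT of each cluster and the largest change of each paralog class. From each list the 4 genes with the lowest p are named, and other names are marked as chosen after their values were seen. Some genes that these rules name are not reported here. Members and lists were chosen with earlier results of these data known.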

Additional observations from a re-analysis of the deposited data

How the results depend on the processing

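KO and WT libraries shared only replicate numbers: deviations from the group means of same-numbered libraries correlated at -0.066, 0.037 and 0.011. With the replicate number as a block, the looser threshold (0.05) called 3 members lower and 4 higher in place of 4 and 8, against 11.1% and 10.3% of all genes. At that threshold, leaving out 1 library gave 1 to 8 lower and 1 to 10 higher. The lowest numbers, 1 lower (Hoxa9) and 1 higher (Hoxa7), came without WT replicate 3, where 5.17% and 5.11% of all genes were called, and the counts were 2 and 4 without WT replicate 1 (7.31% and 7.01% of all genes), 1 and 3 without WT replicate 2 (6.13% and 5.75%), 6 and 7 without KO replicate 1 (13.4% and 14.2%), 2 and 8 without KO replicate 2 (11.6% and 12.4%), and 8 and 10 without KO replicate 3 (24.2% and 23.9%). Hoxa7 and Hoxa9 were called under each of these settings. At the stricter threshold, leaving out 1 library gave 0 to 4 lower and 0 higher, and DESeq2 gave 2 lower and 4 higher. No FPKM threshold gave 0 in both directions. RLE factors, library size alone and no filter left 4 lower each (16.1%, 20.1% and 12.2% of all genes) and 9, 8 and 7 higher (16.8%, 13.1% and 11.9%). The median log2 fold change of HoxC was the least stable value: it was -0.14 with library size alone and ranged from -0.27 to 0.14 when 1 library was left out, with 0.14, 0.051 and 0.013 without WT replicate 2, WT replicate 3 and KO replicate 3. The other medians by cluster and paralog class kept their sign. Gene list calls without KO replicate 3 were added after the values were seen. When 1 library was left out, Hoxc13 ranged from -0.26 to 0.44 and Hoxc11 from -0.52 to 0.033. Hoxc13 was at -0.26, -0.090 and -0.0076 without WT replicate 1, KO replicate 1 and KO replicate 3, and Hoxc11 at 0.033 without WT replicate 3 and also without KO replicate 3. The cause was not tested. Over all alternatives the adjusted p reached 0.0645 for Tbx5, 0.0842 for Tbx4, 0.101 for Crabp1 and 0.0494 for Rdh10. Scaling by library size alone moved the median of all genes to -0.060. Depth limits Hoxb1, Hoxb13, Hoxd1, Hoxc11 and Hoxc13, whose counts are few.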
